A study of Mus musculus with 4 samples.

Results

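Long intergenic noncoding RNAs (lincRNAs) are transcripts without a known protein product that lie between protein-coding genes. Of 26433 genes counted in embryonic mouse cortex, 1872 were annotated as lincRNAs in the deposited table. Members of the set described here were chosen by their summed read count: 100 lincRNAs lay on autosomes and had 400 or more reads over all 4 libraries, and 3 further lincRNAs past that minimum, H19, Meg3 and Mirg of imprinted loci, were left out. The values that chose them are the levels, so levels are given as a description. The rule did not use the comparison between genotypes, but it was set with earlier results of these data known. The data were bulk RNA sequencing of embryonic day 15 (E15) cortex, with 2 libraries of cKI f/+ and 2 of wild-type (WT) littermates, on a strain labelled C57BL/6. How many embryos each library held is not given in the sources used here. In cKI f/+ mice a cassette of the CAG promoter, a floxed stop, a 3×flag tag and human SERPINA3 sits in the Rosa26 locus, and Nestin-Cre removes the stop in Nestin-positive progenitors and their descendants. Founders were bred with B6D2F2 mice before the cross to Nestin-Cre, and a group is limited as a model by its 2 libraries, named KI2 and KI3 for cKI f/+ and WT1 and WT3 for WT. The human transgene was not analysed here.

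The libraries held between 17423512 and 18119444 counted reads, and the biological coefficient of variation was 8.72%. Both cKI f/+ libraries had many reads of Xist (13223 and 11882) and 0 of Ddx3y, and both WT libraries had 5 reads of Xist and many of Ddx3y (364 and 393), so sex and genotype cannot be told apart in any comparison below. Markers of the dorsal telencephalon (Emx1, Tbr1, Neurod6 and 4 others) summed to between 2267 and 2493 CPM (read counts scaled to library size) in each library, and of 5 hindbrain and spinal cord markers only En2 was listed, with 1 read in WT1. Because the tissue is bulk, fewer cells of a type and less RNA per cell cannot be told apart. Choroid plexus markers stood apart in KI3, where 5 genes summed to 63.8 CPM against 8.79 in KI2, 1.53 in WT1 and 4.02 in WT3. The 5 meningeal markers summed to 16.0 and 16.3 CPM in cKI f/+ and to 8.27 and 9.53 in WT, with 0 of 5 called, and the part of these tissues in the lincRNA values was not tested.

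LincRNAs do several kinds of work. Some are retained in the nucleus and bind splicing or chromatin proteins, some are processed into small RNAs such as microRNAs (miRNAs) and small nucleolar RNAs, and some are transcribed away from the promoter of a transcription factor gene. A miRNA represses messenger RNAs that pair with its seed, bases 2 to 8 from its 5′ end. In the cortex the miRNAs miR-9 and miR-124 are known for their part in the switch from progenitors to neurons, and the miR-17 cluster for sustaining progenitor division.

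Members overlapped genes of all of these miRNAs. The miR-9 hosts ranked 1, 4 and 9 by reads, the members over miR-124 genes 7, 14 and 57, and the miR-17 host 43. RefSeq placed 18 miRNA hairpins on the strand of 10 members, 11 in exons and 7 in introns, with 30 mature sequences and 28 seeds. These counts are incomplete, since GENCODE M21 lists further miRNA genes on the strand of members. Among them are Mirlet7f-1 and Mirlet7a-1 in 6720427I07Rik, Mir181a-1 overlapping A430106G13Rik, and several Mir344 genes in A230057D06Rik. All 3 mouse miR-9 genes lay in members: Mir9-1 in an intron of Gm3764 (chr3:88215598-88215686, plus strand), Mir9-2 in an exon of C130071C03Rik (chr13:83738814-83738885, plus strand) and Mir9-3 in an intron of Mir9-3hg (chr7:79505264-79505353, plus strand), in build GRCm38. By the GENCODE M21 annotation, all 3 miR-124 genes also overlapped members on the same strand, but to an unequal extent. Mir124a-1 shared 85 exon bases with Mir124a-1hg, Mir124a-2 shared 27 with Mir124-2hg and Mir124a-3 only 3 with Gm27032. Exons fill the whole span of Gm27032, so the rest of Mir124a-3 lies outside it. The RefSeq sequences of the miR-9 arms, which these 3 hosts share, of the miR-17 cluster in Mir17hg and of the 5p arms in 4 less abundant hosts are shown with the seed in capitals.
miR-9-5p: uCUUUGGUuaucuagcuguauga
miR-9-3p: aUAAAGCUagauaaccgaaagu
miR-17-5p: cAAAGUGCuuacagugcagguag
miR-20a-5p: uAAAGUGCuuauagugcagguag
miR-18a-5p: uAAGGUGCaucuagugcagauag
miR-19a-3p: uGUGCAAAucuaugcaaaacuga
miR-19b-3p: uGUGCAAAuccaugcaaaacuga
miR-92a-3p: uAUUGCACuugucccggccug
miR-129-5p: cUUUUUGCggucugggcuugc
miR-135a-5p: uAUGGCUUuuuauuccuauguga
miR-181b-5p: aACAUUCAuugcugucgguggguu
let-7d-5p: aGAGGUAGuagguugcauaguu
Within the cluster, miR-17 and miR-20a share the seed AAAGUGC and miR-19a and miR-19b the seed GUGCAAA. Among the RefSeq mature sequences counted above, these were the only seeds that 2 different miRNAs shared. Seeds of the miRNA genes listed only by GENCODE were not compared. The miR-129 hairpin lies in an intron of Mir670hg, miR-135a in an intron of RMST_1, miR-181b in an exon of A430106G13Rik and let-7d in an exon of 6720427I07Rik. The libraries counted the host transcripts, not the mature miRNAs.

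Reads on the miR-9 hosts were steady across libraries. Gm3764 had the most reads of any member, 17251 in KI2 and 18090 in KI3, and 15888 in WT1 and 16201 in WT3. Both cKI f/+ libraries were above both WT libraries, but the log2 fold change was 0.11 ± 0.068 (SE, n = 2 per group; adjusted p = 0.969, edgeR's quasi-likelihood test). C130071C03Rik had 8326 and 8641 reads in cKI f/+ and 8680 and 8706 in WT, and its log2 fold change was −0.06 ± 0.070. Mir9-3hg had 3283 and 3668 reads in cKI f/+ and 3317 and 3626 in WT, and the groups overlapped. Gm35040, which begins 1639 bases beyond the end of Mir9-3hg on the same strand, had 2842 and 2887 reads in cKI f/+ and 3166 and 2377 in WT. Together the 3 hosts took 25.2% and 26.5% of all member reads in cKI f/+ and 25.5% and 26.6% in WT.

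The members over miR-124 genes were of unequal level. Mir124a-1hg had 5722 reads in KI2 and 5174 in KI3, and 4468 in WT1 and 5625 in WT3, so the WT libraries enclosed KI3 and its log2 fold change of 0.08 ± 0.12 did not pass the test. Mir124-2hg had 983 and 964 reads in cKI f/+ against 1105 and 1176 in WT, a log2 fold change of −0.26 ± 0.088 with an unadjusted p of 0.0168 and an adjusted p of 0.969 by edgeR. Gm27032, which shares only 3 bases with Mir124a-3, had 199 and 234 reads in cKI f/+ and 174 and 247 in WT. Mir17hg, the host of the cluster shown above, had 307 and 325 reads in cKI f/+ and 296 and 343 in WT, with a log2 fold change of −0.04 ± 0.13. None of the 10 members with a RefSeq hairpin was called, and 4 had a positive log2 fold change, in a range from −0.31 to 0.22. Of the fixed list of 16 known miRNA hosts, 6 were members and 6 more were in the table, of which 5 were tested, and 0 of the tested genes were called.

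Member reads were concentrated in few transcripts. The 3 members with the most reads, Gm3764, Miat and Gm42047, took 37.1% of the 446275 member reads, and the first 12 took 75.9%, while 51 members had fewer than 1000 reads each. As a whole the members took 0.647% of counted reads in KI2 and 0.634% in KI3, and 0.621% in WT1 and 0.616% in WT3. Both cKI f/+ libraries were higher. With 2 libraries against 2, an exact two-sided permutation test cannot give a p below 0.333. Without Gm42047, described below, the shares were 0.586%, 0.573%, 0.579% and 0.574% in the same order, and the groups overlapped.

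**Figure D1:**
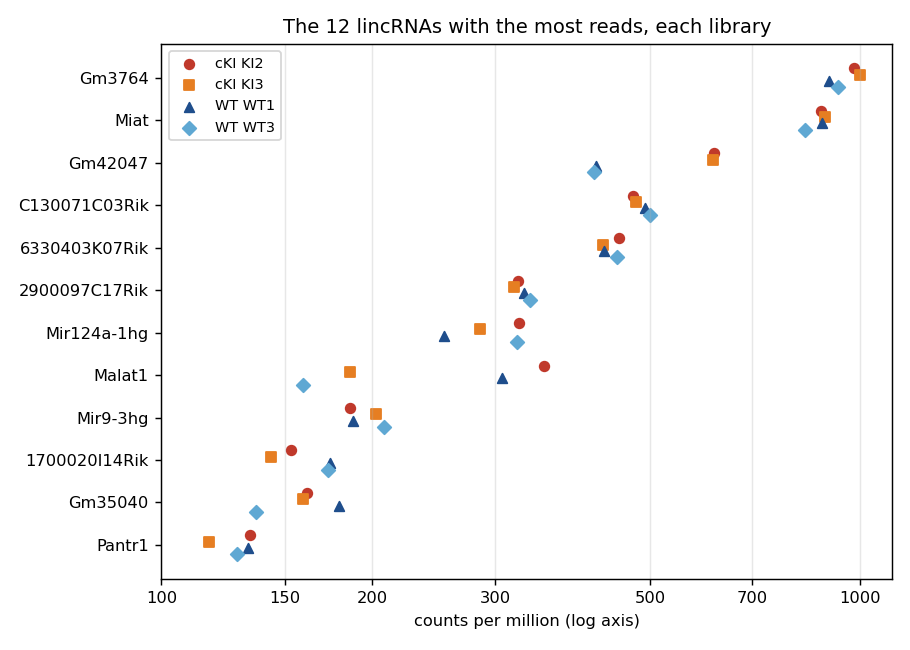
CPM (log axis) of the 12 lincRNAs with the most reads, 1 symbol per library. The red and orange cKI f/+ symbols lie right of both WT symbols for Gm3764 and Gm42047, by 1.08-fold and 1.48-fold, and Malat1 is split by library within both groups.

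Levels per length put the members in another order. In RPKM, CPM divided by exon length in kilobases, the members ranged from 0.598 to 294 with a median of 5.76. The highest was 6330403K07Rik, at 294 RPKM on average, and GENCODE M21 lists this gene as protein-coding, as it does none of the other members. Gm3764 followed at 164 RPKM on average, then Miat at 93.7, Gm42047 at 91.5 and C130071C03Rik at 85.7. The members had longer exons than the 1737 autosomal lincRNAs under the minimum, a median of 3200 bases against 1455, and a longer exon collects more reads at the same level. The smallest summed counts admitted were 400 for Gm17354, 411 for Gm20342 and 423 for 6720427I07Rik, and the nearest left out were Gm44837 with 398, Gm27042 with 391 and C78859 with 387.

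Between genotypes most members differed little. Of the 100 members, all of which passed the expression filter and were tested, 1 was called at an adjusted p under 0.05, Gm42047, which was higher in cKI f/+. Over all 15786 tested genes 0.120% were called. At an unadjusted p under 0.05 there were 9 members, 3 higher and 6 lower in cKI f/+, against 4.60% of all tested genes. Both cKI f/+ libraries lay on one side of both WT libraries for 30 members, 10 higher and 20 lower, where the share over all tested genes was 34.1%. The median log2 fold change was −0.05 in the members and 0.00 in all tested genes, and 41 members were positive and 59 negative. Of the members, 75 had a log2 fold change within 0.2 of 0, as had 9082 of 10257 tested autosomal protein-coding genes with 400 or more reads. For 59 members the whole 95% interval lay within 0.5 of 0 on the log2 scale, so a larger change was outside it. The same held for 8854 of those protein-coding genes, of which 4.04% had an unadjusted p under 0.05 by edgeR. The median absolute log2 fold change was 0.103 in the members and 0.0726 in those genes, with median standard errors of 0.15 and 0.101. The members were thus less flat than protein-coding genes past the same minimum.

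**Figure D2:**
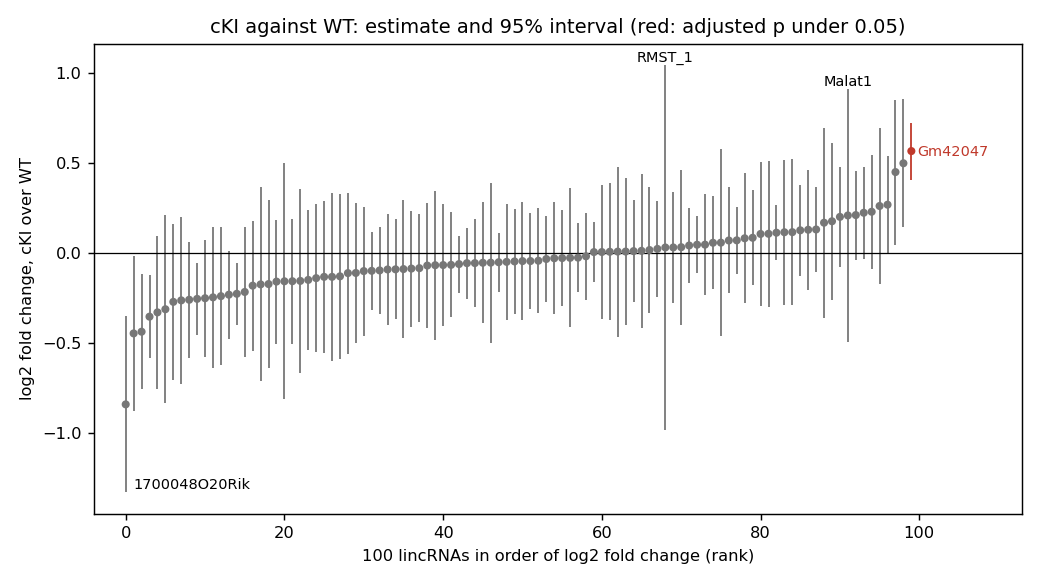
Log2 fold change of cKI f/+ over WT for the 100 lincRNAs in rank order, with 95% intervals from edgeR. Gm42047 (red) is the only one with an adjusted p under 0.05, 1700048O20Rik has the lowest estimate at −0.84, and the intervals of RMST_1 and Malat1 are the widest.

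Gm42047, a lincRNA known only by its gene model number, lies on the plus strand at chr8:121833247-121841178 of GRCm38. It had 10888 reads in KI2 and 11145 in KI3, and 7387 in WT1 and 7233 in WT3. The libraries of a group differed by about 1.01-fold or less, and the groups were far apart, at 616.4 ± 2.14 CPM in cKI f/+ and 416.9 ± 2.60 CPM in WT (SD, n = 2 each). The fold was 1.48, a log2 fold change of 0.56 ± 0.070 (SE) with a 95% interval from 0.41 to 0.72 and an adjusted p of 0.0183 by edgeR's quasi-likelihood test. It was also called by DESeq2 and with each library left out in turn.

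Much of this transcript is repeated elsewhere in the genome. Of the 31-base words in its GENCODE transcripts, 72.3% also occurred in transcripts of 17 other genes, against a median of 0.696% over the members. Only 2900097C17Rik at 44.7% and Gm26809 at 31.8% were also past 30%. The genes that shared at least 10% of the words were Gm48362, Gm47939, Gm43549, Gm47761 and Gm46349. The longest runs of Gm42047 identical to the first 4 of these copies were between 331 and 495 bases long, and the first 120 bases of the longest and of the second longest are shown because reads from them have more than 1 possible origin.
Gm42047, chr8:121834280-121834399, plus strand, start of a run of 495 bases shared with Gm47761: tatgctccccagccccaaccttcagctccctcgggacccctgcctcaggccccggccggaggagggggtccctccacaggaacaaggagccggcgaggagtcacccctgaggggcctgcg
Gm42047, chr8:121839067-121839186, plus strand, start of a run of 376 bases shared with Gm43549: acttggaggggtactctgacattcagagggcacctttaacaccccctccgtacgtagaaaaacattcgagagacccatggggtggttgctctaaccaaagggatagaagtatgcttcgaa
The 5 copies together had 40 reads in KI2 and 36 in KI3, and 31 in WT1 and 23 in WT3. Adding these reads to Gm42047 gave a log2 fold change of 0.56 with an adjusted p of 0.0184 by edgeR. With 7233 or more reads on Gm42047 in each library, so few added reads could hardly change the estimate. This fit therefore does not bear on reads with several origins. How the counting treated reads with several origins is not given in the sources used here, and copies without an annotated gene were not counted. RefSeq also lists a protein-coding gene, Gm42048, over the same place (chr8:121833991-121843902), so the label lincRNA differs between annotations.

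The genes around Gm42047 did not follow it past the test. Within 500 kb, 10 other genes were tested, 0 were called, 7 had a positive log2 fold change, and their median was 0.08. The nearest protein-coding gene, Klhdc4, starts 3678 bases away on the other strand and had 916 and 927 reads in cKI f/+ and 799 and 875 in WT, a log2 fold change of 0.11 ± 0.094. Slc7a5, an amino acid transporter gene, had 1876 and 2160 reads in cKI f/+ and 1906 and 1998 in WT. The processed pseudogene Gm17709 had 56 and 58 reads in cKI f/+ and 37 in each WT library, a log2 fold change of 0.59 ± 0.26 with an unadjusted p of 0.0443 and an adjusted p of 0.969 by edgeR. It was the only one of the 10 with an unadjusted p under 0.05.

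**Figure D3:**
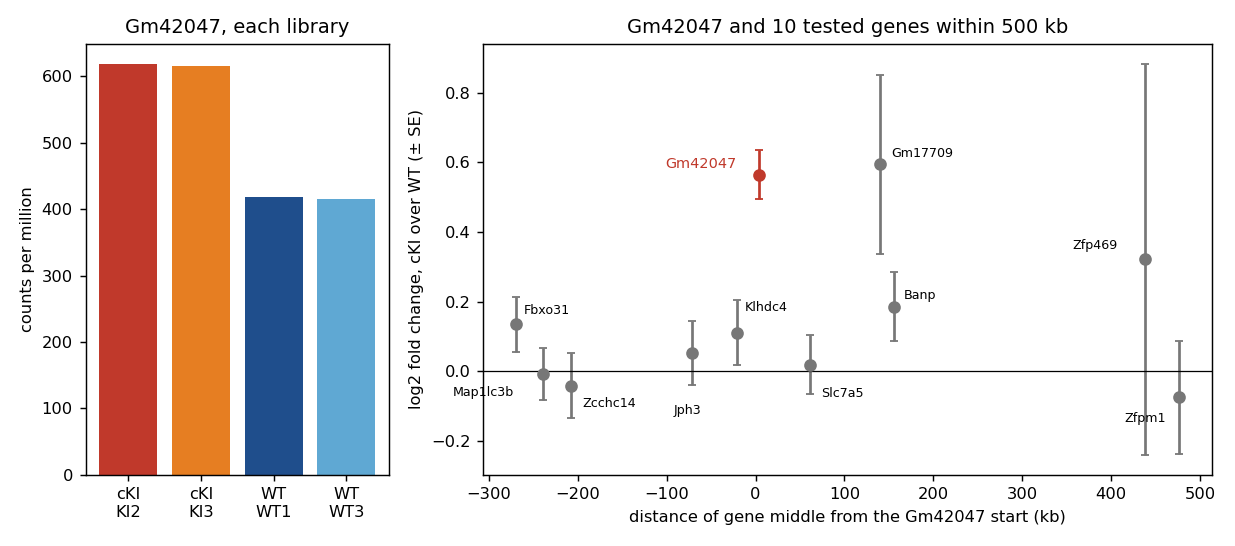
Left, Gm42047 in CPM, 1 bar per library, with both cKI f/+ bars above both WT bars. Right, log2 fold change of cKI f/+ over WT (± SE) for Gm42047 and the 10 tested genes within 500 kb, by distance from its start: Gm42047 stands at 0.56 and the others have a median of 0.08.

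Among the other members, the lowest p belonged to 1700048O20Rik, on the plus strand at chr9:121937223-121947016. It had 96 and 100 reads in cKI f/+ and 207 and 138 in WT, so the groups did not overlap and the WT libraries differed from each other by 1.48-fold. The log2 fold change was −0.84 ± 0.22 with an unadjusted p of 0.00352 and an adjusted p of 0.681 by edgeR. Without WT3 it passed the test, with an adjusted p of 0.0230, and without WT1 the log2 fold change was −0.53 with an adjusted p of 0.776. Its nearest protein-coding gene, Fam198a, had 19 and 16 reads in cKI f/+ and 29 and 16 in WT. The RefSeq promoter, 250 bases before to 50 after the start, is shown for its repeated motif, with each match to the CCAAT box (CCAAT or its reverse complement ATTGG) in capitals.
1700048O20Rik promoter, chr9:121937025-121937324, GRCm38.p6, plus strand: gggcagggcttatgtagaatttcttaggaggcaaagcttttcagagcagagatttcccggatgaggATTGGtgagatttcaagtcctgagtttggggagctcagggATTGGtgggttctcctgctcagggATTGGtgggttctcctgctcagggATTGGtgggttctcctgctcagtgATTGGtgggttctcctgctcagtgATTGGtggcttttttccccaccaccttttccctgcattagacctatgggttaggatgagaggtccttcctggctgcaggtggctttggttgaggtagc
It held 6 matches, all as ATTGG, and 0.0791% of 32851 RefSeq promoters of the same length held 6 or more. Most of the matches lie in copies of a short tandem repeat, so they are not separate occurrences. Motif and cut of 6 were taken from this promoter, so the share is a description and not a test. A match is a string of letters and not a measured binding site.

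Of the remaining members with an unadjusted p under 0.05, 5 were lower in cKI f/+. AI504432 had 511 and 528 reads in cKI f/+ against 620 and 683 in WT. The log2 fold change was −0.35 ± 0.10, with an unadjusted p of 0.00649 and an adjusted p of 0.876 by edgeR. Its neighbour Kcna3, a potassium channel gene, had 34 and 26 reads in cKI f/+ and 52 and 37 in WT. Gm29260 had 601 and 451 reads against 732 and 669, a log2 fold change of −0.44 ± 0.14. 1700020I14Rik is the RNA known as Cyrano, which carries a long conserved site for a brain miRNA, and it had 2701 and 2597 reads in cKI f/+ against 3076 and 3013 in WT. Its log2 fold change of −0.23 ± 0.077 was small, its groups did not overlap, and its neighbour Oip5 had 104 and 117 reads in cKI f/+ and 108 and 128 in WT. CT009718.4 had 96 and 127 reads against 143 and 155, and Mir124-2hg is given above.

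The others were higher. AI849053 had 313 and 374 reads in cKI f/+ against 209 and 268 in WT. The log2 fold change was 0.50 ± 0.16, with an unadjusted p of 0.0113 and an adjusted p of 0.969 by edgeR. It starts 2218 bases from Gm3764 on the opposite strand, and the values of Gm3764, also with groups apart, are given above. E330013P04Rik had 362 and 523 reads in cKI f/+ against 280 and 355 in WT, a log2 fold change of 0.45 ± 0.18. Its highest library was KI3, the one with the highest choroid plexus marker sum, and KI2 was also above both WT libraries. The part of choroid plexus in these values was not tested. AU020206, next in order of p, had 408 and 477 reads against 346 and 375, with an unadjusted p of 0.0511. Over the uncalled members the adjusted p ranged from 0.681 to 0.998.

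The nuclear RNAs of the list were Miat, Malat1 and RMST_1, the Rmst gene of GENCODE, with Neat1 under the minimum at 152 reads. Miat, also called Gomafu, is held in the nuclei of neurons and binds splicing factors. It had 15492 and 16104 reads in cKI f/+ and 15540 and 14516 in WT, with a log2 fold change of 0.04 and a 95% interval from −0.11 to 0.20. Malat1, an RNA of nuclear speckles, had 6210 reads in KI2 and 3374 in KI3, and 5417 in WT1 and 2778 in WT3. It differed by 1.89-fold between the cKI f/+ libraries and by 1.93-fold between the WT libraries, and the 95% interval of its log2 fold change between genotypes ran from −0.49 to 0.91. RMST_1, known as a partner of Sox2 in neurogenesis, had 67 reads in KI2 and 244 in KI3, and 121 in WT1 and 176 in WT3. Its spread of 3.54-fold within cKI f/+ was the widest of the members, KI3 was again the highest, and the part of choroid plexus or adjoining tissue in it was not tested.

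Malat1 was one of 3 members that moved by more than 1.5-fold between the libraries of both groups. Gm35394 had 245 reads in KI2 and 159 in KI3, and 290 in WT1 and 154 in WT3. Gm26917, which lies where the mouse assembly carries a copy of the ribosomal RNA precursor, had 569, 956, 658 and 1025 reads in the same order. Malat1 and Gm35394 were thus high in KI2 and WT1, and Gm26917 was high in KI3 and WT3. Among the 11111 tested genes with 400 or more reads, 28, or 0.252%, moved by this much within both groups. Across the 100 members, the log2 difference of KI2 from KI3 and that of WT1 from WT3 had a Pearson r of 0.430, and 0.271 without these 3. Over all tested genes r was 0.099. These correlations are over genes, which are not independent replicates and share the 4 libraries. No label links KI2 with WT1 or KI3 with WT3, so this matching is arbitrary, and the other matching would reverse the sign of r. Mitochondrial genes took 1.86% of reads in KI2 and 1.73% in KI3, and 1.74% in WT1 and 2.04% in WT3. The 5 blood markers summed to 433, 284, 405 and 455 CPM in the same order. Some other marker sums differed in the same direction within both groups under this matching. The 7 dorsal telencephalon markers were higher in KI2 (2430 CPM) than in KI3 (2267) and in WT1 (2493) than in WT3 (2409). The 5 ventral telencephalon markers were lower, at 208 CPM in KI2 against 213 in KI3 and 214 in WT1 against 264 in WT3. The choroid plexus and meningeal sums given above were also lower in KI2 than in KI3 and in WT1 than in WT3. The part of any of these tissues, of blood or of mitochondrial reads in the differences between libraries was not tested.

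**Figure D4:**
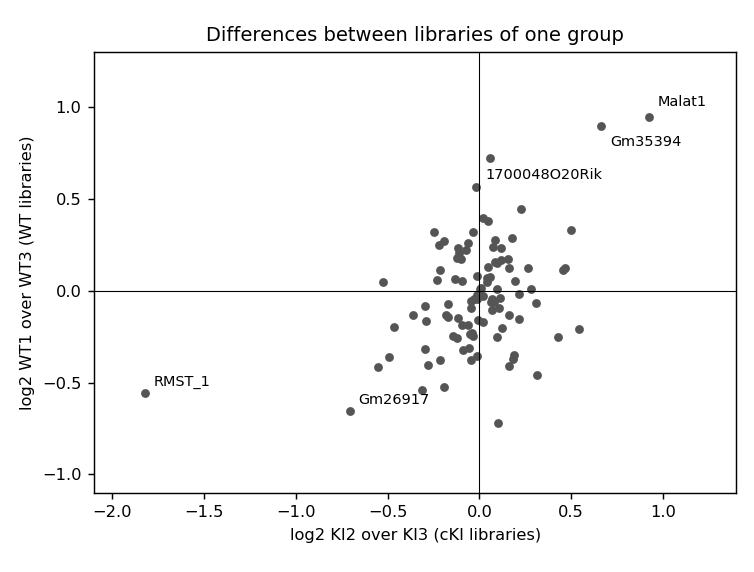
Each point is 1 of the 100 lincRNAs, with the log2 ratio of KI2 to KI3 on the horizontal axis and that of WT1 to WT3 on the vertical axis. Malat1 and Gm35394 are far out in the upper right, Gm26917 in the lower left, and RMST_1 is farthest left.

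Promoters of Malat1 and Gm35394, which moved together between libraries, are shown with any TATA box, CCAAT box or GC box in capitals, searched on both strands.
Malat1 promoter, chr19:5802623-5802922, GRCm38.p6, minus strand: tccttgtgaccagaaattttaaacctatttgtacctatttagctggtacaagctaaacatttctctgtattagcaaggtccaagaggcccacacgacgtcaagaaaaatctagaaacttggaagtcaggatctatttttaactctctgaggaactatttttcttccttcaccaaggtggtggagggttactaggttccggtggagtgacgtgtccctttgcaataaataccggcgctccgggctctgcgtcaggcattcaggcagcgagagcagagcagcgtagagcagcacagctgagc
Gm35394 promoter, chr5:99273671-99273970, GRCm38.p6, plus strand: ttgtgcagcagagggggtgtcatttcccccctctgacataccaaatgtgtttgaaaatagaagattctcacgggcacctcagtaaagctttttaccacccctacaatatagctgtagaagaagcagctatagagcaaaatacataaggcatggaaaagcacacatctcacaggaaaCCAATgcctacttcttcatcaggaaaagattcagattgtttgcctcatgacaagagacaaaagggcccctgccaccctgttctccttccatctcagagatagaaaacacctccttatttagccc
No capitals appear in the Malat1 window and 1 CCAAT box in that of Gm35394. RefSeq promoters were matched by symbol for 54 of the 100 members. No limit was set on distance, and some lay far from the start of the counted gene, such as Gm29260 at 38777 bases and Gm3764 at 7669. In the 54 promoters the median number of CpG dinucleotides was 13.5, against 7 over all 32851 promoters and 5 in those of 746 lincRNAs under the minimum. A GC box, read as GGGCGG, was in 53.7% of the member promoters and in 35.7% of all promoters. The CCAAT box was in 46.3% and 37.4% of them. A TATA box, read as TATAAA, was in 16.7% and 13.6%.

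Hosts of small nucleolar RNAs, which guide the modification of ribosomal RNA, were represented by 5 members of a list of 21 names. The list does not cover every host: by GENCODE M21, Snord93 lies on the same strand within the member 2700038G22Rik, which is not on it. Snhg12 had 467 and 446 reads in cKI f/+ and 377 and 398 in WT, with a log2 fold change of 0.21 ± 0.11. Snhg20 had 469 and 516 reads against 390 and 438, and Snhg6 had 558 and 670 against 573 and 476. Snhg18 and Epb41l4aos overlapped between the groups with log2 fold changes of −0.09 and −0.03. Of these 5 members, 0 were called, and of the 13 other genes of the list in the table, such as Gas5, 11 were tested and 0 called.

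Norad (2900097C17Rik) sequesters Pumilio proteins, which repress messenger RNAs, and it had 5697 and 5787 reads in cKI f/+ and 5818 and 5867 in WT, a log2 fold change of −0.05 ± 0.072. With Cyrano it made up the members of the list of widely expressed lincRNAs, of which 0 were called, and of the 5 others in the table, 4 were tested and 0 called. From the lincRNAs of the Hox clusters, which mark hindbrain and spinal cord, 0 were members and only Halr1 was in the table, with 4 reads.

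Some members are transcribed away from a protein-coding gene's promoter. In 15 members the start lay between 72 and 926 bases from the start of a counted protein-coding gene on the opposite strand, head to head. All partners of these 15 were tested. A counted protein-coding gene, tested or not, lay head to head within 1000 bases for 9.96% of the 1727 lincRNAs under the minimum with a known position. Pantr1 is one of the 15 members and lies 926 bases from Pou3f3, which encodes a transcription factor of upper-layer neurons. Pantr1 had 2361 and 2121 reads in cKI f/+ and 2348 and 2233 in WT, and Pou3f3 had 10399 and 9769 reads in cKI f/+ and 12065 and 10443 in WT. Their log2 fold changes were −0.06 and −0.18, and neither was called. Another member, 2610035D17Rik, had 680 and 736 reads in cKI f/+ and 771 and 652 in WT. With Pantr1 it made up the members of a list of 14 noncoding RNAs compiled as neighbours of transcription factor genes. The protein-coding gene nearest to 2610035D17Rik was Slc39a11, 43015 bases away, so a place beside such a gene was not shown here. Of the list, 13 were in the table and 4 of these were annotated as lincRNAs. Of the 11 others of that list in the table, 10 were tested and 0 called.

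Values are given for 14 of these pairs. Among them 0 lincRNAs and 0 partners were called by edgeR, and 0 of either kind had an unadjusted p under 0.05. The pair left out is not covered by these counts, and they may not hold with it included. The log2 fold changes of lincRNA and partner had the same sign in 5 pairs, and their Pearson r over the 14 pairs was −0.437, given as a description since the pairs share the 4 libraries. The partner had the higher RPKM in 9 pairs. Taking for each member the nearest protein-coding gene, wherever it lay, 90 pairs with 87 different genes could be tested, 49 had the same sign, and 0 of the neighbours were called. At an unadjusted p under 0.05 there were 3 neighbours, Meis2 and Rhcg among them. Meis2, a transcription factor gene and the neighbour of 2 members, G630016G05Rik and 2700033N17Rik, had 6183 and 6612 reads in cKI f/+ and 7483 and 7150 in WT, a log2 fold change of −0.22 ± 0.073 with an adjusted p of 0.969 by edgeR. Rhcg, an ammonium transporter gene 33330 bases from Gm35040, had 96 and 109 reads in cKI f/+ and 59 and 62 in WT. Its log2 fold change was 0.73 ± 0.21, with an adjusted p of 0.876 by edgeR, while that of Gm35040 was 0.02.

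**Figure D5:**
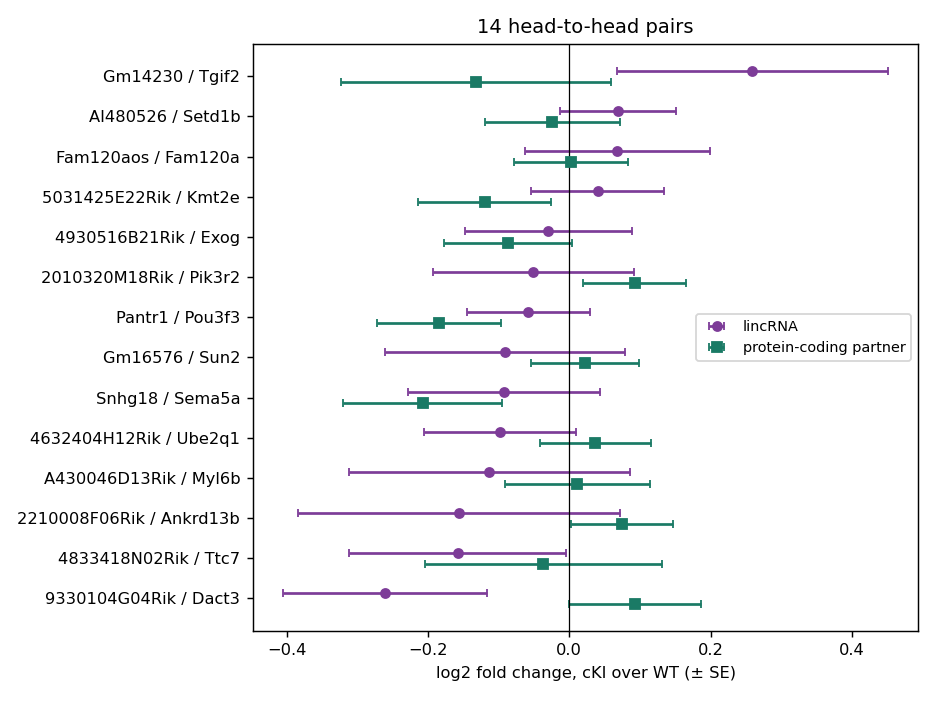
Log2 fold change of cKI f/+ over WT (± SE) for 14 lincRNAs that start within 1000 bases of a protein-coding gene on the opposite strand (circles) and for that gene (squares). All 28 values lie within 0.3 of 0, and the pair has the same sign in 5 of 14 cases.

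Reads of overlapping genes limit some of these values. Of the 100 members, 32 shared exon bases with another gene of the table, 26 of them with a gene on the opposite strand and 6 on the same strand, and whether counting used strand is not given in the sources used here. Gm42047, the only member called, was not among these 32. Leaving them out made no new fit, so 1 call among the other 68 was fixed in advance and is not a check. Some members lie beside each other: 6 pairs were within 10 kb, and in 3 of these the genes overlapped, among them AI480526 with Gm38102 and with 4932422M17Rik. AI480526 had 1257 and 1238 reads in cKI f/+ and 1150 and 1184 in WT, and the log2 fold change of 4932422M17Rik was −0.26 ± 0.21.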

How the data were processed

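Telencephalic RNA from E15 embryos was read on a HiSeq 2500 instrument. The values are raw counts per gene of 4 libraries, deposited by the authors without normalization. The submitters' processing notes name Bowtie2 2.2.3, TopHat2 2.0.12, HTSeq 0.6.0 and build mm9, with no roles, while the table's gene positions are of GRCm38: 26378 of 26433 identifiers are in GENCODE M21 and 24485 have its position. Columns were assigned to a genotype by name, not to single labelled samples, and 0 columns belonged to another series. The labels describe triplicates, and 2 libraries per group were analysed here. Nothing states whether these were single embryos, so p-values measure only the spread between them. The deposited table also holds the authors' comparison, which was not used: a signal column (mean normalized count), a fold change as a ratio and as log2, and the p-value.

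edgeR 4.0.16 in R 4.3.3 kept 15786 genes (its default filter, minimum count 10), scaled them by TMM and tested cKI f/+ against WT by quasi-likelihood, with Benjamini-Hochberg adjustment over all of them and a threshold of 0.05. Alternatives were DESeq2 1.42.0, the likelihood ratio test, other scalings, filters and member minimums, and each library left out. The test was checked on simulated counts. RPKM used GENCODE exon lengths. Named members are the 12 with most reads, those called, the 10 with the lowest p, those at the minimum and those in fixed lists. The other members and pairs were named after their values were seen. The members and lists were chosen with earlier results of these data known. Mature miRNAs and promoters are RefSeq's, of GRCm38.p6. Results for a few genes are not reported here.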

Additional observations from a re-analysis of the deposited data

How the results depend on the processing

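Gm42047 was called in all 12 alternative fits, with a log2 fold change between 0.55 and 0.57. The 4 fits without 1 library gave adjusted p between 0.00119 and 0.0431 by edgeR, and the other 8 between 9.61e-09 and 0.0445. The number of members called was 1 in every alternative but one: without 1 library it was between 1 and 2, the second being 1700048O20Rik without WT3. The median log2 fold change of the members moved by less than the spread between libraries, 0.0481, in every alternative, and was between −0.05 and −0.03 without 1 library. Of 384 values of 32 named members, 383 stayed on their side of the threshold, and 12 uncalled members changed sign at least once. Over all tested genes, the likelihood ratio test called 54, a filter of 10 counts per library left 6 calls, leaving out both sex chromosomes left 11, and omitting 1 library gave between 46 and 71, where the lone library is assumed to vary like the other group; the main count was 19. The nearest protein-coding genes gave 0 calls in every fit. The members' share of reads was 0.640% in cKI f/+ and 0.618% in WT, 0.614% and 0.595% without Malat1, 0.662% and 0.639% of autosomal reads, and, chosen after seeing the data, 0.579% and 0.577% without Gm42047. Adding the reads of the copies of Gm42047 and leaving out members with shared exon bases were also chosen after seeing the data. The first could hardly move Gm42047, since the copies hold few reads. The second dropped rows from the main fit without a new fit, and Gm42047 was not among them, so its call could not change. No paired analysis was possible because cKI f/+ and WT have fewer than 2 replicate numbers in common. Near the minimum, Gm20342, with 411 reads in all, had a standard error of 0.192 on the log2 scale and A430106G13Rik, with 439, one of 0.232; RMST_1, with 608, had 0.449.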
